A study of Mus musculus with 9 samples.

Results

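Ovaries of a mouse model of premature ovarian failure (POF) were compared with wild-type (WT) ovaries across all genes measured on an Illumina expression BeadChip, a chip that reads biotin-labelled cRNA with bead-bound probes. The comparison took replicates 2 and 3 of each group, 4 of the 9 samples of a series with another ovary group, mice that received spermatogonial stem cell transplants (SSCTR). Replicate 1 of each group was left out because its deposited values are computed from replicates 2 and 3. A probe was kept where its detection p was under 0.05 on 2 or more of the 4 arrays, which retained 18379 of 45281 probes, and 10615 named genes.

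The POF group is labelled only as a premature ovarian failure model and the WT group only as a wild-type control; both are labelled as ovaries of strain C57BL/6. How the failure was brought about, which allele or agent was involved, the age of the mice and whether a sample was 1 animal or a pool are not given in the sources used here. Nothing in the labels says that replicates came from separate animals, so p-values measure only the spread between these samples, which may be technical.

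The mouse ovary holds a finite stock of oocytes, each enclosed with its granulosa cells in a follicle. The oocyte sends growth factors to the granulosa cells, which return KIT ligand and small molecules through gap junctions, while theca and luteal cells make steroids. In premature ovarian failure the stock of follicles is lost early. A surface epithelium covers the ovary, and the oviduct, lined by secretory and ciliated cells, opens beside it. In bulk tissue, fewer cells of a type and less RNA per cell cannot be told apart.

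Probes above background numbered 17855 and 18041 on the POF arrays, against 17752 and 18019 on the WT arrays. Across the probes tested, which are not independent replicates, log2 values correlated at 0.986 between the POF arrays and at 0.987 between the WT arrays, and at 0.959 to 0.962 between POF and WT arrays. Among 5 listed genes known to differ between inbred strains, H2-Ea went against the strain label. Genes outside that list were not searched for this. H2-Ea, a class II chain of the major histocompatibility complex that C57BL/6 mice are known not to transcribe and that RefSeq annotates as a transcribed pseudogene in its C57BL/6J assembly, had a normalized log2 intensity of 4.33 and 4.29 in POF ovaries, against 5.94 and 7.61 in WT ovaries. It was above background on both WT arrays and on neither POF array, and measured 7.26 and 7.33 in SSCTR ovaries. Among the other genes known to differ between inbred strains, Wdfy1 fell by 0.99 ± 0.23 (SE) on the log2 scale, a call lost without POF replicate 3 (adjusted p = 0.145), WT replicate 2 (0.131) or WT replicate 3 (0.0837), while Nnt was at 0.42 and Glo1 at -0.08, neither past the threshold. Whether the groups differed in genetic background, and its part in the results below, was not tested.

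Of the 18379 probes, 1955 (10.6%) differed between POF and WT at a Benjamini-Hochberg adjusted p under 0.05 in limma, 1155 higher in POF and 800 lower. With the brightest probe standing for each gene, 1229 of 10615 genes (11.6%) passed: 707 were higher (6.66%) and 522 lower (4.92%). The difference was at least 2-fold for 424 of the higher and 204 of the lower genes, and at least 8-fold for 23 of the higher and 3 of the lower genes. A standard error of 0.20 on the log2 scale was typical, and the median log2 change over all genes was -0.03. The groups did not overlap at 54.0% of all probes tested and at each of the 1955 past the threshold, so non-overlap is given below as a description only. The list counts that follow are to be read against these shares and this median. The lists were chosen with earlier results of these data known, so their counts describe the members and are not a test. A gene below background on both arrays of 1 group was tested only through the other group. The filter thus largely set its direction. Among probes that carry no symbol, or several, 321 passed, 209 higher and 112 lower. Leaving out 1 array, so that 1 lone sample is assumed to vary like the other groups, left 645 genes without POF replicate 2, 498 without POF replicate 3, 500 without WT replicate 2 and 590 without WT replicate 3.

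**Figure D1:**
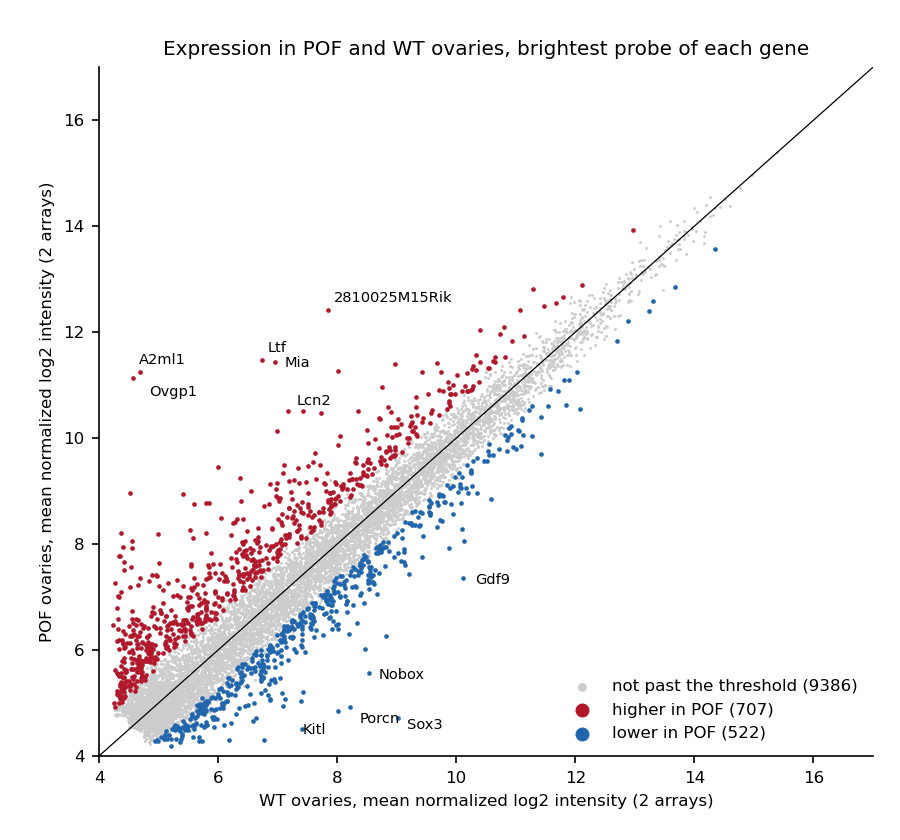
Mean normalized log2 intensity in POF ovaries (vertical axis) against WT ovaries (horizontal axis) for the brightest probe of each of 10615 genes, 2 arrays a group. Red points are the 707 genes higher in POF, blue points the 522 lower, grey points the 9386 not past the threshold, and the line marks equal values; A2ml1 and Ovgp1 lie farthest above the line and Sox3 farthest below it.

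Oocyte genes were lower in POF ovaries. All 3 egg coat genes, 10 of 11 measured oocyte transcription factors and all 4 genes of oocyte growth factors and their receptor fell on the brightest probe, and none of these 18 rose on it; a second probe of the receptor gene, Kit, rose. Their median log2 changes were -1.38, -1.26 and -1.24. The summed log2 level of the egg coat genes was 9.60 and 9.63 in POF ovaries, against 10.94 and 11.13 in WT ovaries. The oocyte growth factor sum was 10.38 and 10.39 in POF ovaries, against 11.92 and 11.92 in WT ovaries. In both sums the POF arrays lay close together and well under the WT arrays.

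The egg coat, or zona pellucida, is the glycoprotein shell that the oocyte secretes around itself. Zp1, which cross-links its filaments, measured 6.34 and 6.26 in POF ovaries, against 8.20 and 8.18 in WT ovaries, a log2 change of -1.89 ± 0.19 (SE; 3.71-fold lower, adjusted p = 0.000594). Zp2, which binds sperm, measured 8.40 and 8.73 in POF ovaries, against 9.87 and 10.03 in WT ovaries (-1.38 ± 0.19, adjusted p = 0.00272). Zp3, a filament protein, measured 8.48 and 8.17 in POF ovaries, against 9.53 and 9.81 in WT ovaries (-1.35 ± 0.19, adjusted p = 0.0032). The POF arrays were the lower pair for each of the 3 genes. The zona genes are known targets of FIGLA, a factor that binds E-boxes. The promoter of Zp3 is shown because it is the 1 zona promoter in the RefSeq promoter table (GRCm38.p6, chr5:135979855-135980104, plus strand, the 250 bases before the start), with matches to CANNTG in capitals.
Zp3: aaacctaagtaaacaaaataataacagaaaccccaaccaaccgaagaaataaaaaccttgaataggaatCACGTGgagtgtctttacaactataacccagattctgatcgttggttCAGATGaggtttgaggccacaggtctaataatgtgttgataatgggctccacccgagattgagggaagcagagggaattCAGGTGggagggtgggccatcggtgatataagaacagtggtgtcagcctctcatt
The 3 matches begin 181, 134 and 55 bases before the start; CANNTG, which reads the same on both strands, occurs in 66.22% of all 32851 promoters of that table, so its presence is a description only.

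Among the oocyte transcription factors, Nobox, a homeobox factor that drives early follicle growth, measured 5.46 and 5.66 in POF ovaries, against 8.45 and 8.64 in WT ovaries (7.91-fold lower, adjusted p = 3.3e-05). Figla, the factor of the zona genes, measured 7.50 and 7.07 in POF ovaries, against 8.63 and 8.57 in WT ovaries (2.49-fold lower, adjusted p = 0.00378). Sohlh1 and Sohlh2, paired helix-loop-helix factors of early oocytes, were 2.79-fold and 3.07-fold lower. The second Sohlh1 probe fell too (-1.03). Foxo3, which holds primordial follicles at rest, measured 8.11 and 7.76 in POF ovaries, against 9.88 and 9.88 in WT ovaries (3.86-fold lower, adjusted p = 0.000452), although its dimmer probe, above background on 1 array of each group, was at -0.13. The member that did not pass was Sall4 (-0.63), named after its value was seen. Without POF replicate 2, POF replicate 3, WT replicate 2 or WT replicate 3, the lower transcription factors numbered 8, 9, 7 and 7, while the counts of 3 egg coat and 4 growth factor genes held each time. With the mean over a gene's probes 3 of the growth factor genes fell, Kit being the one lost.

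Gdf9 and Bmp15 encode the paired growth factors with which the oocyte directs its granulosa cells. Gdf9 measured 7.43 and 7.28 in POF ovaries, against 10.09 and 10.16 in WT ovaries (6.81-fold lower, adjusted p = 4.07e-05). Bmp15 measured 9.82 and 9.89 in POF ovaries, against 11.11 and 11.08 in WT ovaries (2.36-fold lower, adjusted p = 0.00242). For both genes the POF arrays were the lower pair. Fgf8, which with BMP15 promotes glycolysis in cumulus cells, was 2.37-fold lower. Kit, the receptor of KIT ligand on the oocyte, was 2.35-fold lower on its brighter probe (adjusted p = 0.00384). A second Kit probe, below background in WT, was higher, so that the mean of both probes did not pass (adjusted p = 0.533).

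Among genes of RNA and protein that the oocyte stores for the embryo, of 19 measured stored maternal factors 8 fell, with a median of -0.70, and of 10 measured genes of the subcortical maternal complex and oocyte Nlrp family 3 fell, with a median of -0.55. Mos, the kinase that holds the egg in metaphase, measured 7.41 and 7.14 in POF ovaries, against 8.59 and 8.54 in WT ovaries (2.45-fold lower, adjusted p = 0.00273). Dppa3, which guards maternal DNA methylation after fertilization, measured 6.90 and 6.84 in POF ovaries, against 8.14 and 8.16 in WT ovaries (2.43-fold lower). For both genes all POF arrays were below all WT arrays. Oas1d, an oligoadenylate synthetase of the oocyte, was 3.31-fold lower and Rfpl4 2.56-fold lower on its brightest probe.

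The defining subunits of the subcortical maternal complex did not pass here, but 3 of them did without background correction, at similar log2 changes. Nlrp5 measured 10.21 and 9.99 in POF ovaries, against 10.45 and 10.69 in WT ovaries (-0.48 ± 0.18, adjusted p = 0.139), with other probes at -0.40 and -0.44. Ooep measured 10.28 and 10.48 in POF ovaries, against 10.94 and 10.69 in WT ovaries (-0.44 ± 0.22, adjusted p = 0.258). In both the POF arrays were the lower pair, but the gap was small against the spread. Tle6 was at -0.62 (adjusted p = 0.0739), Padi6 at -0.67 (adjusted p = 0.0726) and Khdc3, near background, at -0.33. Without background correction Nlrp5 (adjusted p = 0.0235), Tle6 (0.00858) and Padi6 (0.0122) passed and Ooep (0.113) did not, and 6 of the 10 genes fell. The authors' normalized values gave 6 too, but that setting is nearly the same and not a separate check. A p that misses the threshold does not show that these genes were level, and whether they fell less than Gdf9 or the zona genes was not tested. The 3 that fell were Nlrp4b (2.18-fold), Nlrp9a (2.16-fold) and Nlrp14 (1.9-fold, with both other probes lower too). The number that fell was 1 without any single array, whichever of the 4 was left out, and the stored factors numbered 4 without POF replicate 2, 6 without POF replicate 3, 5 without WT replicate 2 and 6 without WT replicate 3.

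**Figure D2:**
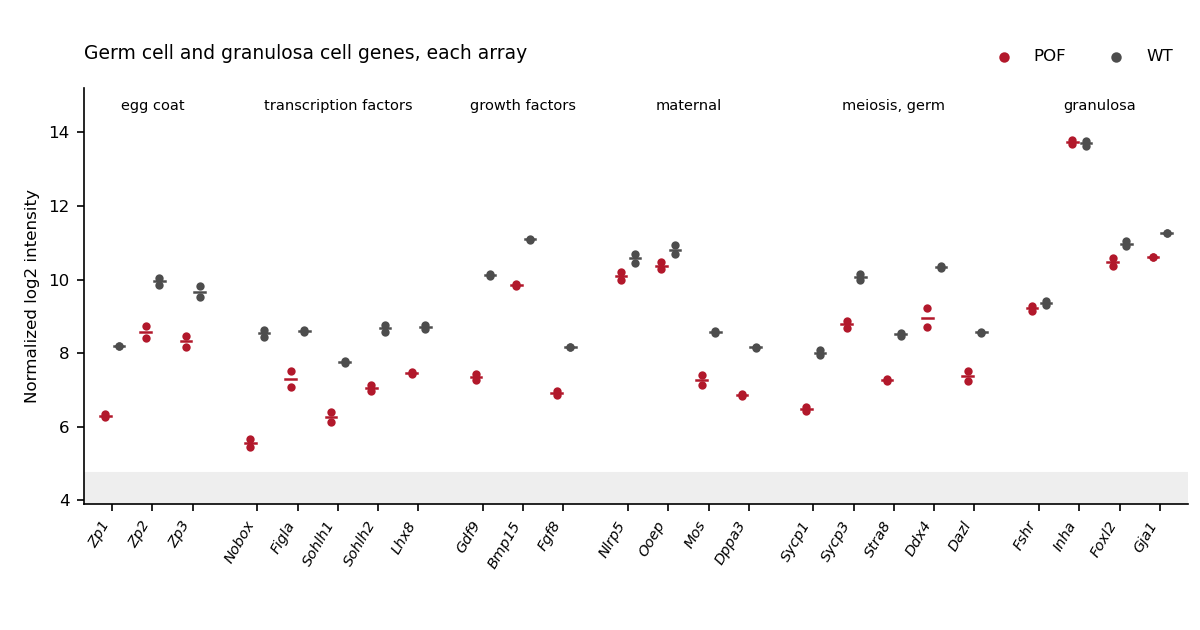
Normalized log2 intensity of 24 germ cell and granulosa cell genes on each POF (red, left) and WT (dark grey, right) array, with a bar at the mean of 2 arrays and shading below the lowest value of a detected probe. Zona, growth factor and meiosis genes lie lower in POF with no overlap, while the pairs of Fshr and Inha lie close together.

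Meiotic and germ cell RNA genes were lower as well. In meiotic prophase, which oocytes enter before birth, 7 of 11 measured genes fell and none rose, with a median of -0.88. Sycp1, the transverse filament of the synaptonemal complex that joins paired chromosomes, measured 6.42 and 6.54 in POF ovaries, against 7.94 and 8.09 in WT ovaries (2.89-fold lower, adjusted p = 0.00115). Sycp3, a lateral element of the complex, measured 8.69 and 8.87 in POF ovaries, against 10.15 and 9.998 in WT ovaries (2.45-fold lower, adjusted p = 0.00272). Both components lay lower on each POF array than on any WT array. Stra8, the retinoic acid target that marks entry into meiosis, was 2.36-fold lower (adjusted p = 0.00323), Rec8, the meiotic cohesin, 2.16-fold and Dmc1, the meiotic recombinase, 1.82-fold. The Dmc1 and Rec8 calls were lost without POF replicate 3, WT replicate 2 or WT replicate 3 (adjusted p = 0.081 to 0.137), and the list's count was 5 without POF replicate 2, 4 without POF replicate 3, 4 without WT replicate 2 and 3 without WT replicate 3.

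Of 12 measured germ granule and germ cell RNA genes 5 fell and none rose, with a median of -0.53, and the count of 5 held without any 1 array. Ddx4, the germ cell RNA helicase, measured 9.22 and 8.72 in POF ovaries, against 10.32 and 10.36 in WT ovaries (2.59-fold lower, adjusted p = 0.00448). Dazl, which promotes translation of germ cell RNAs, measured 7.53 and 7.25 in POF ovaries, against 8.55 and 8.58 in WT ovaries (2.26-fold lower, adjusted p = 0.00423). The POF pair was the lower one for both, and the second Dazl probe was at -0.19. Cpeb1, which controls polyadenylation of stored RNAs, was 2.62-fold lower, and Nanos1, above background on 1 POF array, 2.45-fold lower. Of 14 measured spermatogonial genes, male germline markers that share members with these lists, 4 fell and 1 rose; the fallers included Stra8, Dnd1 and the brightest probe of Kit, and Zbtb16, their defining factor, was near background (0.18). None of the genes of the Y chromosome list was above background on enough arrays to be tested.

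Of 17 measured granulosa cell genes 4 fell and 1 rose, with a median of -0.48. Without background correction 10 of the 17 fell, Foxl2 (adjusted p = 0.0125), Fst (0.03) and Inhba (0.037) among them, at log2 changes close to those below. Fshr, the receptor of follicle-stimulating hormone, measured 9.15 and 9.28 in POF ovaries, against 9.41 and 9.32 in WT ovaries (-0.15 ± 0.17, adjusted p = 0.645). Inha, the inhibin alpha subunit, measured 13.69 and 13.79 in POF ovaries, against 13.64 and 13.76 in WT ovaries (0.04 ± 0.17, adjusted p = 0.92). The groups overlapped for Inha and nearly touched for Fshr. Foxl2, the factor that maintains granulosa identity, was at -0.50 (adjusted p = 0.11), and the activin and follistatin genes Inhba and Fst were at -0.46 and -0.41.

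Kitl, the granulosa signal to the oocyte, had the lowest change of the list on its brightest probe. That probe measured 4.69 and 5.03 in POF ovaries, against 7.95 and 8.08 in WT ovaries (8.91-fold lower, adjusted p = 9.32e-05), and was above background on 1 of 2 POF arrays. Its other probes fell by 0.71 and rose by 1.08, so the 3 probes of Kitl do not give 1 direction. Gja1, the connexin that couples granulosa cells, was 1.57-fold lower (adjusted p = 0.0401), and Gja4, the oocyte's connexin, measured 9.10 and 8.87 in POF ovaries, against 10.14 and 9.91 in WT ovaries (2.07-fold lower, adjusted p = 0.00935). Gja1 lost its call without any 1 array (adjusted p = 0.13 to 0.15), and Gja4 without POF replicate 3 (0.0722) or WT replicate 2 (0.0738). The granulosa count was 2 without POF replicate 2 and 1 without POF replicate 3, WT replicate 2 or WT replicate 3.

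Of 13 activin, inhibin and follistatin pathway genes the 1 to pass was Acvr2a, the type 2 activin receptor, which measured 5.29 and 5.13 in POF ovaries, against 7.51 and 7.34 in WT ovaries (4.64-fold lower, adjusted p = 0.00016). Without background correction 5 of the 13 fell and 1 rose, Fst and Inhba among the 5. In Wnt signalling 3 of 20 fell and 1 rose around a median of 0.07, and 3 rose without background correction. Porcn, the acyltransferase that readies Wnt proteins for secretion, measured 4.81 and 5.04 in POF ovaries, against 8.34 and 8.11 in WT ovaries (9.83-fold lower, adjusted p = 2.92e-05). Wnt4, needed for ovarian development, was 1.84-fold lower (adjusted p = 0.0223), but not without POF replicate 3, WT replicate 2 or WT replicate 3. Porcn and Acvr2a are single-probe genes here.

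Of 8 steroid synthesis genes 2 fell. Among these 8 steroid synthesis genes Cyp11a1, the side-chain cleavage enzyme, measured 9.05 and 9.08 in POF ovaries, against 10.01 and 9.78 in WT ovaries (1.78-fold lower, adjusted p = 0.0184), but its other probes were at -0.02 and 0.24. Cyp17a1, the androgen-forming enzyme of theca cells, measured 9.44 and 9.08 in POF ovaries, against 10.09 and 10.10 in WT ovaries (1.78-fold lower, adjusted p = 0.0244). Star, which carries cholesterol into mitochondria, was at 0.33 and Akr1c18, the progesterone-degrading enzyme, at 0.17, neither past the threshold. Esr1, estrogen receptor alpha, was 1.97-fold lower (adjusted p = 0.0157) and Esr2, its granulosa counterpart, was at -0.61 (adjusted p = 0.0575). Igf1r, the receptor of insulin-like growth factor 1, was 1.87-fold lower. Each of these calls was lost without 1 or more arrays: without POF replicate 3 and WT replicate 2 for all of Cyp11a1, Cyp17a1, Esr1 and Igf1r, without POF replicate 2 for Cyp11a1, and without WT replicate 3 for Cyp17a1 and Igf1r (adjusted p = 0.063 to 0.135). Igf1r was also the 1 of 13 insulin-like growth factor genes to pass, where 4 fell without background correction, as did 4 of the 8 steroid synthesis genes. None of 16 cholesterol synthesis, 10 ovarian somatic transcription factor, 9 corpus luteum and 7 hedgehog genes passed in limma, where 2, 4, 4 and 1 of them had an unadjusted p under 0.05. Over all 18379 probes tested, 4769 had an unadjusted p under 0.05 in the same fit.

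Genes of dividing cells were lower. Of 23 measured DNA replication genes 12 fell and 1 rose, with a median of -0.73, and of 16 mitosis genes 9 fell and 1 rose, with a median of -0.88. Mcm5, a subunit of the replicative helicase, measured 8.46 and 8.41 in POF ovaries, against 9.72 and 9.82 in WT ovaries (2.51-fold lower, adjusted p = 0.00272). Mcm2, another subunit, was 2.27-fold lower, Gins1, which activates the helicase, 2.06-fold, and Cdc45, its partner, 1.94-fold. Aurkb, the kinase of chromosome segregation, measured 6.12 and 5.99 in POF ovaries, against 7.59 and 7.23 in WT ovaries (2.56-fold lower, adjusted p = 0.00341). Plk1, another mitotic kinase, was 2.3-fold lower, and Cdk1, the mitotic driver, was 2.46-fold lower on its brightest probe with the other at 0.52. Pcna, the replication clamp, near background, was at -0.69 (adjusted p = 0.0811). The calls of Mcm2, Gins1, Cdc45 and Cdk1 were lost without 1 or more arrays: without WT replicate 2 for all 4, POF replicate 2 for Mcm2 and Cdc45, POF replicate 3 for Mcm2 and Gins1, and WT replicate 3 for Gins1 (adjusted p = 0.0586 to 0.0829).

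The genes that went the other way were Chaf1a, a histone chaperone subunit, which measured 10.55 and 10.20 in POF ovaries, against 9.50 and 9.40 in WT ovaries (1.9-fold higher, though not without POF replicate 2 or either WT array), and Cdca8, whose second probe fell. The replication count rested on both arrays of each group: it was 2 without POF replicate 2, 2 without POF replicate 3, 2 without WT replicate 2 and 3 without WT replicate 3, while the other alternatives gave 9 to 17. The mitosis count was 4, 6, 4 and 3 without POF replicate 2, POF replicate 3, WT replicate 2 and WT replicate 3. All but 1 of the 23 replication genes had a negative log2 change.

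Epithelial genes rose, and held the largest changes of the comparison. Of 17 measured oviduct secretory and epithelial genes 12 rose and none fell, with a median of 2.25, and their summed log2 level was 13.94 and 13.79 in POF ovaries, against 10.28 and 10.37 in WT ovaries. This list was chosen with earlier results of these data known and holds several of the largest rises, so its count, median and sum are descriptions only. Ovgp1, the oviduct-specific glycoprotein, measured 11.34 and 11.16 in POF ovaries, against 4.94 and 4.44 in WT ovaries (94.4-fold higher, adjusted p = 1.24e-06), where 1 of 2 arrays was above background. Its second probe, below background in WT, was at 0.38 and did not pass. A2ml1, a protease inhibitor related to alpha-2-macroglobulin, measured 11.23 and 11.06 in POF ovaries, against 4.63 and 4.52 in WT ovaries, and was at least 85.4-fold higher (adjusted p = 3.58e-07). Both genes were at or near the background in WT, and the second A2ml1 probe rose as well (6.82).

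Other genes of the same list rose too. Ltf, lactotransferrin, measured 11.75 and 11.20 in POF ovaries, against 6.45 and 7.03 in WT ovaries (26.7-fold higher, adjusted p = 2.36e-05). Lcn2, a lipocalin that sequesters bacterial siderophores, measured 10.48 and 10.56 in POF ovaries, against 7.21 and 7.12 in WT ovaries (10.2-fold higher). The POF arrays were the higher pair by more than 3 log2 units for both. Mia, a secreted protein first known from melanoma, was 22.2-fold higher, with its second probe at 4.27, and Padi1, a peptidylarginine deiminase, was at least 18.8-fold higher. Wfdc15b, a whey acidic protein, was at least 11.2-fold higher and Wfdc2, another, 7.31-fold. Pax8, the defining transcription factor of oviduct secretory cells, was not above background on enough arrays to be tested, and the part of oviduct tissue in these results was not tested. The count of 12 was 11 without POF replicate 2, 12 without POF replicate 3 and 11 without either WT array, and 6 where a detection p under 0.01 was required on all 4 arrays, which leaves out genes below background in WT.

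Motile cilia genes rose in part: 6 of 17 measured members rose and 1 fell, with a median of 0.60, or 0.36 once genes not above background are set to their bounds. Dynlrb2, a dynein light chain of cilia, measured 8.23 and 7.90 in POF ovaries, against 4.43 and 4.67 in WT ovaries, and was at least 10.1-fold higher (adjusted p = 0.000104). Cdhr3, a cadherin of ciliated cells, measured 6.71 and 6.00 in POF ovaries, against 4.44 and 4.38 in WT ovaries (at least 3.09-fold higher). Tekt1, a filament protein of the axoneme, was 2.74-fold higher (adjusted p = 0.00356). Dynlrb2 and Cdhr3 were below background on both WT arrays, and Tekt1 was just above it there. The first 2 were thus tested only through the POF arrays, and that filter largely set their direction. Of the 10 members above background on all 4 arrays 2 rose and 1 fell, with a median of 0.26. Ccno, the cyclin that sets centriole number in multiciliated cells, went the other way (1.66-fold lower, adjusted p = 0.0456), though not without POF replicate 3 or either WT array. Foxj1, the defining ciliogenesis factor, was not above background on enough arrays to be tested. The number that rose was 4 without POF replicate 2, 3 without POF replicate 3, 3 without WT replicate 2 and 4 without WT replicate 3, and 2 where a detection p under 0.01 was required on all 4 arrays.

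Ciliary genes are known targets of RFX factors, whose X-box has the half-site GTTGCC. Promoters of the 3 risen genes that held it are shown, from RefSeq (GRCm38.p6), as the 250 bases before the start, on the strand of the gene, with GTTGCC or its reverse complement GGCAAC in capitals. They lie at chr8:116504765-116505014 (Dynlrb2, plus strand), chr11:72361883-72362132 (Tekt1, minus strand, the first of 2 starts) and chr12:33092876-33093125 (Cdhr3, minus strand).
Dynlrb2: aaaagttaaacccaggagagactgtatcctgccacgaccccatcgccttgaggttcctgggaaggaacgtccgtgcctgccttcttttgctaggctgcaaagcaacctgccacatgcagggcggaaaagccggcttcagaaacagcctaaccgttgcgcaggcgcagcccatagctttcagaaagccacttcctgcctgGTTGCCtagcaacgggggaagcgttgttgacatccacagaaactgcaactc
Tekt1: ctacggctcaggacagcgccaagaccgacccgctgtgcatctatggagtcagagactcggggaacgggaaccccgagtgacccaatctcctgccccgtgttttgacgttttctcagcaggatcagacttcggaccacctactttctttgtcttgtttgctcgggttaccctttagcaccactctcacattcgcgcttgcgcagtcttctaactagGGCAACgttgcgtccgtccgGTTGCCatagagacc
Cdhr3: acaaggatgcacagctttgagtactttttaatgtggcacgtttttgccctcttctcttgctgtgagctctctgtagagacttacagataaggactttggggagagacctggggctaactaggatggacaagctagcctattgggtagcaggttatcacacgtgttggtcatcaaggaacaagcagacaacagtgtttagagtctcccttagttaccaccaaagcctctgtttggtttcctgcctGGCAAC
The match began 51 bases before the start in Dynlrb2, 35 and 15 in Tekt1 and 6 in Cdhr3. Of 29 list genes with a promoter in the table, 15 held a match on either strand (51.72%), against 10.43% of all 32851 promoters; among those tested it was 9 of 14, and among those that rose 3 of 5. A list gene counted if any of its starts matched, while the share of all promoters counts each start, so the 2 shares are not in like units. A match is not a site, and the list was chosen with these genes' results known.

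Simple epithelial keratins and genes of the ovarian surface rose too. Of 6 measured keratins 4 rose and none fell, with a median of 1.54, and of 14 surface epithelium and mesothelium genes, which share 4 keratins with that list, 8 rose and none fell, with a median of 0.97. Krt7 measured 7.96 and 8.45 in POF ovaries, against 5.69 and 5.90 in WT ovaries (5.32-fold higher, adjusted p = 0.000554). Krt19 measured 8.82 and 8.93 in POF ovaries, against 7.13 and 6.94 in WT ovaries (3.58-fold higher, adjusted p = 0.00043). Krt18 was 3.29-fold higher, while its partner Krt8 was at 0.49 (adjusted p = 0.256). For Krt8 1 POF array lay close to the WT arrays.

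Upk1b, a uroplakin of mesothelium-like epithelia, measured 8.61 and 8.89 in POF ovaries, against 5.74 and 5.47 in WT ovaries (8.86-fold higher, adjusted p = 0.000383). Upk3b, a uroplakin found on mesothelium, was 2.37-fold higher, with both other probes higher too (1.36 and 1.15), but not without POF replicate 3 (adjusted p = 0.0585). Msln, mesothelin, near background, was at 0.76 (adjusted p = 0.0826). Claudins, the sealing proteins of tight junctions, rose at 6 of 11 measured genes and fell at none, with a median of 0.91, or 0.89 at their bounds: Cldn3 was 4.63-fold, Cldn15 3.76-fold, Cldn23 at least 1.85-fold and Cldn2 at least 1.81-fold higher. Cldn23 and Cldn2 were below background on both WT arrays and so were tested only through the POF arrays. Of the 8 claudins above background on all 4 arrays 4 rose and none fell, with a median of 0.39. Cldn11 and Cldn5, of the ovary's own granulosa and endothelial cells, were among the 5 that did not pass (-0.13 and -0.53, named after their values were seen). With a detection p under 0.01 required on all 4 arrays 3 claudins rose. The surface list numbered 5 without POF replicate 3 and 7 to 8 without each other array.

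**Figure D3:**
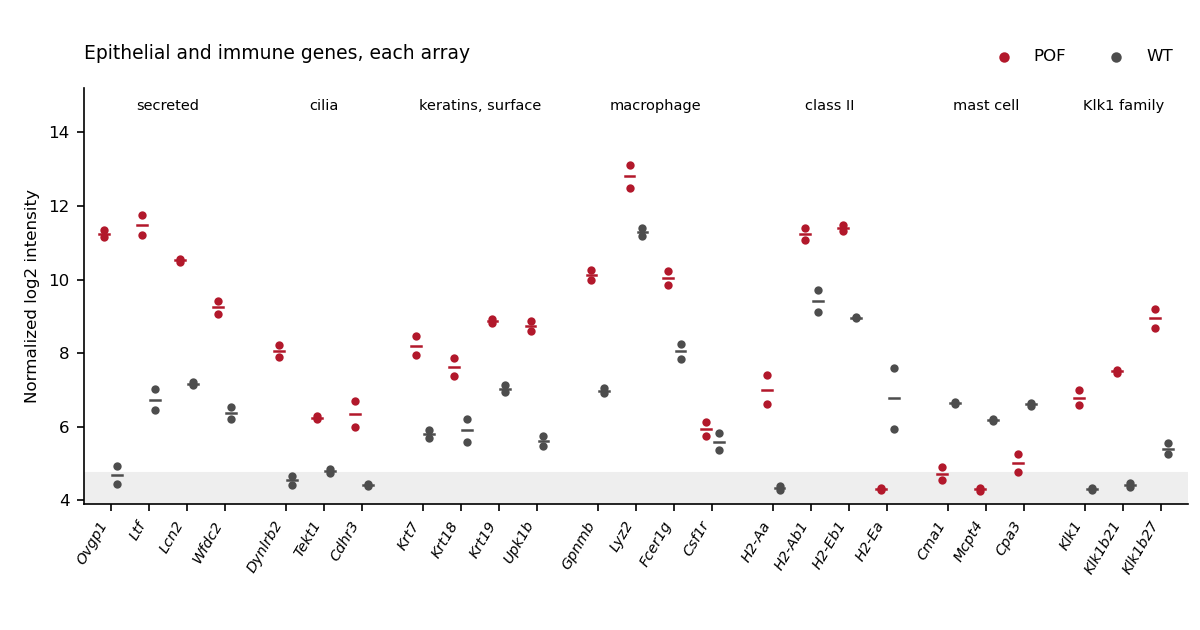
Normalized log2 intensity of 25 epithelial, immune and kallikrein genes on each POF (red, left) and WT (dark grey, right) array, with a bar at the mean of 2 arrays and shading below the lowest value of a detected probe. Secreted, keratin and most class II genes lie higher in POF, while H2-Ea and the mast cell proteases lie lower.

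Macrophage and complement genes rose. Of 19 measured macrophage genes 9 rose and none fell, with a median of 0.81, and their summed log2 level was 14.29 and 14.54 in POF ovaries, against 13.20 and 13.37 in WT ovaries. Gpnmb, a glycoprotein of lipid-laden macrophages, measured 10.001 and 10.25 in POF ovaries, against 7.05 and 6.92 in WT ovaries (8.84-fold higher, adjusted p = 2.69e-05). Fcer1g, the signalling chain of Fc receptors, measured 10.23 and 9.86 in POF ovaries, against 7.85 and 8.24 in WT ovaries (4-fold higher, adjusted p = 0.000635). Lyz2, lysozyme, was 2.85-fold higher and Trem2, a lipid-sensing receptor, 2.52-fold. The defining receptors did not pass. Csf1r, the receptor of macrophage growth factor, measured 5.75 and 6.12 in POF ovaries, against 5.37 and 5.82 in WT ovaries (0.34 ± 0.24, adjusted p = 0.413), and Adgre1, a surface antigen of macrophages, was at 0.10. The count was 6 without POF replicate 2, 5 without POF replicate 3, 4 without WT replicate 2 and 7 without WT replicate 3.

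Of 11 measured complement genes 8 rose and none fell, with a median of 0.89. C4b, of the classical pathway, was 2.26-fold higher on its brightest probe, C1qa and C1qb, chains of the first component, 2.25-fold and 2.14-fold, and Cfi, the inactivating protease, 2.46-fold. Every measured complement gene had a positive change, but each call was modest: the count was 3 without POF replicate 2, 1 without POF replicate 3, 0 without WT replicate 2 and 3 without WT replicate 3, and 5 with no filter on dim probes. Among 22 chemokine and receptor genes 3 rose and 2 fell. Cxcl16, a scavenger receptor and chemokine, was 2.27-fold higher and Cxcl12, which retains lymphoid and stem cells, 2.32-fold lower. The lymphocyte list split, with Cd3g of T cells 1.67-fold higher and Cd79b of B cells 2.84-fold lower among 6 measured genes. Cxcl16 lost its call without WT replicate 2 (adjusted p = 0.0556), Cxcl12 without POF replicate 3 or either WT array, Cd79b without either POF array or WT replicate 2, and Cd3g without any 1 array (adjusted p = 0.0894 to 0.12 for these 3).

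Class II genes of the major histocompatibility complex, which present antigen on macrophages and dendritic cells, moved in opposite directions. Of 11 measured genes 6 rose and 1, H2-Ea, fell, with a median of 0.76. H2-Eb1 measured 11.32 and 11.50 in POF ovaries, against 8.96 and 8.97 in WT ovaries (5.42-fold higher, adjusted p = 9.96e-05). H2-Ab1 measured 11.40 and 11.08 in POF ovaries, against 9.13 and 9.72 in WT ovaries (3.51-fold higher), and its other probes rose by 3.11 and 2.03. H2-Aa measured 7.40 and 6.61 in POF ovaries, against 4.27 and 4.40 in WT ovaries (at least 4.85-fold higher). H2-Aa was above background on the POF arrays alone and H2-Ea on the WT arrays alone. H2-Ea, whose values are given above, was at least 4.14-fold lower (adjusted p = 0.00783), a call lost without POF replicate 2 (0.0591) or POF replicate 3 (0.0686). Cd74, the invariant chain that all class II molecules use, was 1.69-fold higher (adjusted p = 0.0474), but not without any 1 array (0.0576 to 0.236), and Ciita, the class II activator, was at 0.40, named after its value was seen. The count that rose was 3 without POF replicate 2, WT replicate 2 or WT replicate 3 and 4 without POF replicate 3.

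The class II promoters are known for a Y box that holds CTGATTGG. The promoters of H2-Aa (chr17:34287824-34288073, minus strand) and H2-Eb1 (chr17:34305617-34305866, plus strand) are shown because both genes rose and both held it, again as the 250 bases before the start in RefSeq (GRCm38.p6), with the match in capitals.
H2-Aa: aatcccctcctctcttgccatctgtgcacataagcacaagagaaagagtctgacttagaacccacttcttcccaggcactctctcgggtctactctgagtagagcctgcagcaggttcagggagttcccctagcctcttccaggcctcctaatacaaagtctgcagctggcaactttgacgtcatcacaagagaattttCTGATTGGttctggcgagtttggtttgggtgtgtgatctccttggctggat
H2-Eb1: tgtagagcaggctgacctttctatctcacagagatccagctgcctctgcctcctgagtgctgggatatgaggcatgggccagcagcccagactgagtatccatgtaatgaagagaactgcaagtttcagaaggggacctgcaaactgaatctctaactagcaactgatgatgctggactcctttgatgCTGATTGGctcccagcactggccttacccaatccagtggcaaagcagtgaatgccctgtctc
The match began 51 bases before the start in H2-Aa and 62 in H2-Eb1. On either strand CTGATTGG was in 4 of 8 list genes with a promoter in the table and in 3.829% of all promoters. Among those tested it was 3 of 7, and among those that rose 2 of 4, H2-DMb1 and H2-DMb2 being without it. Here too a list gene counted if any of its starts matched, while the share of all promoters counts each start. A match is not a site, and the list was chosen with these genes' results known.

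Mast cell proteases fell. Of 8 measured mast cell genes 6 fell and 1 rose, with a median of -1.28, or -1.22 once genes not above background are set to their bounds. Cma1, a chymase, measured 4.54 and 4.90 in POF ovaries, against 6.67 and 6.61 in WT ovaries (3.78-fold lower, adjusted p = 0.00046), and was above background on 1 POF array. Mcpt4, another chymase, measured 4.34 and 4.26 in POF ovaries, against 6.15 and 6.21 in WT ovaries (at least 2.75-fold lower). Cpa3, a carboxypeptidase of mast cell granules, was 3.03-fold lower on its brightest probe, with others at -1.16 and 0.20, and the tryptases Tpsab1 and Tpsb2 were at least 1.95-fold and 2.31-fold lower. In POF ovaries the proteases were at or near the background. Kit, the other faller, is also an oocyte gene. Hdc, histidine decarboxylase, was 2.04-fold higher (adjusted p = 0.00668), and the list's summed log2 level, Hdc included, was 11.65 and 11.49 in POF ovaries, against 11.03 and 10.99 in WT ovaries. Tpsab1 lost its call without POF replicate 2 (adjusted p = 0.0503) or POF replicate 3 (0.0644), and Tpsb2 without either of these or WT replicate 3 (0.0514 to 0.131). The count of lower genes was 4 without either POF array, 6 without WT replicate 2 and 5 without WT replicate 3, and 1, Kit, where a detection p under 0.01 was required on all 4 arrays.

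Protease and protease inhibitor families held some large changes. Of 6 measured members of the kallikrein 1 family, secreted serine proteases of glands, 5 rose and none fell, with a median of 2.61, or 2.22 at their bounds. Klk1b27 measured 8.69 and 9.20 in POF ovaries, against 5.26 and 5.56 in WT ovaries (11.6-fold higher, adjusted p = 0.000136). Klk1b21 measured 7.55 and 7.45 in POF ovaries, against 4.48 and 4.36 in WT ovaries (at least 6.85-fold higher). All but Klk1b27 were below background in WT, so 1 gene rose where a detection p under 0.01 was required on all 4 arrays. The others were tested only through the POF arrays, so the count and median largely follow from that filter. Of 12 members on the array 6 were not tested. These genes are near-identical copies, so which of them gave the signal is uncertain.

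In the Serpin A family, inhibitors made mainly in liver, 3 of 7 measured genes rose and 1 fell. Serpina1e measured 7.99 and 7.56 in POF ovaries, against 4.33 and 4.35 in WT ovaries (at least 8.29-fold higher). Serpina1b, its near copy, measured 4.66 and 4.36 in POF ovaries, against 7.48 and 7.35 in WT ovaries (at least 6.47-fold lower, adjusted p = 0.000624), with another probe lower and 1 at 0.07. With a detection p under 0.01 required on all 4 arrays 1 gene of the family rose and none fell. The brightest probes of the 2 copies were each above background in 1 group alone, but the probes of Serpina1b did not all move together. Because they are near copies, which of them gave the signal is uncertain. Serpina1 copies are known to differ in number between inbred strains, and whether that bears on these values was not tested. Serpina5, an inhibitor of protein C and kallikreins, was 4.5-fold higher.

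Collagen chains rose at 2 of 18 and fell at 1, metalloproteinases and their inhibitors rose at 1 of 15 and fell at 2, and fibrosis genes rose at 1 of 20 and fell at 2. Col1a1, Col1a2 and Col3a1, the main fibrillar collagens, were at -0.66, 0.36 and -0.31, none past the threshold. Col6a2, a microfibrillar collagen, was 2.4-fold higher with its second probe also higher. Endothelial genes rose at 2 of 17 and fell at 2: Plvap, of fenestrated vessels, was 2.54-fold higher and Vegfa 1.78-fold lower. Without background correction 6 fibrosis genes fell and 5 endothelial genes rose. Smooth muscle fell at 2 of 15, with Acta2 at 0.23. Among 17 p53 targets none rose and 2 fell, of which Cdkn1a has probes in both directions, and among 13 Bcl2 family genes the 1 that fell was the oocyte gene Bcl2l10. Vegfa lost its call without any 1 array (adjusted p = 0.0535 to 0.0913), Cdkn1a without POF replicate 3 or either WT array (0.0549 to 0.0796), and Bcl2l10 without either POF array or WT replicate 3 (0.0916 to 0.177).

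Of 16 immediate early genes, whose RNA can respond to how a tissue is collected, Klf6 rose (1.94-fold, adjusted p = 0.0309) and Fos was at 0.85 (adjusted p = 0.0524). Of 11 heat shock genes Hspb1 rose (2.47-fold). Of 4 erythroid genes none passed in limma, and 1 had an unadjusted p under 0.05, as did 4769 of all 18379 probes tested. Of 31 glutathione and aldehyde detoxification genes 3 rose: Gstm6 (4.28-fold, all 3 probes), Gsta3 (4.21-fold), both glutathione transferases, and Aldh1a2 (3.08-fold), the retinoic acid synthase of mesothelium; 6 rose without background correction. Of 20 interferon genes 1 rose, Rsad2 (2.35-fold), and 1 fell, Mx2, and 3 fell without background correction. Of 40 respiratory chain genes 1 rose, Ndufb10 (1.85-fold, adjusted p = 0.0459), a call lost in 9 of the alternatives, while without background correction none rose and 5 fell. Of 34 ribosomal protein genes 1 rose, Rpl29 (1.93-fold), and 1 fell, Rps6 (3.32-fold). Among reference genes Gapdh was at -0.36, Actb at 0.40 and Hprt at 0.22, none past the threshold, and Pgk1 fell by 0.74. Sertoli cell genes, a list for the testis that the ovary shares in part, rose at 4 of 11 and fell at 1; Cst9 was at least 2.64-fold and Rhox8 2.76-fold higher, and Sox9, their defining factor, was at 0.56 (adjusted p = 0.0981). The Sertoli count was 2 without POF replicate 2, 2 without POF replicate 3, 1 without WT replicate 2 and 2 without WT replicate 3. Calls were lost without any 1 array for Mx2 and Pgk1, without POF replicate 3 or either WT array for Klf6, without POF replicate 2 or either WT array for Rpl29, without either POF array or WT replicate 2 for Rhox8, without POF replicate 3 or WT replicate 2 for Hspb1, without POF replicate 3 for Aldh1a2 and without POF replicate 2 for Rsad2 (adjusted p = 0.0502 to 0.203).

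The smaller lists had single calls. Cumulus genes fell at 1 of 3, Adamts1, a protease of ovulation (2.45-fold lower). Prostaglandin genes rose at 1 and fell at 1 of 11: Cbr2, a carbonyl reductase, was 2.84-fold higher and Ptges, a prostaglandin E synthase, 1.86-fold lower with its second probe also lower. Theca and interstitial genes fell at 2 of 6, Cyp17a1 and Hao2. The calls of Adamts1 and Hao2 were lost without any 1 array (adjusted p = 0.0536 to 0.155), and that of Ptges without POF replicate 3 or either WT array (0.0789 to 0.135). Adipoq, the adipocyte hormone, was 1.83-fold higher, the 1 of 7 adipocyte genes to pass, though not without POF replicate 3 or either WT array. Fabp4 and Plin1, the other defining adipocyte markers, were not tested. The 1 spermatid gene measured, Crem, did not pass (0.43).

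**Figure D4:**
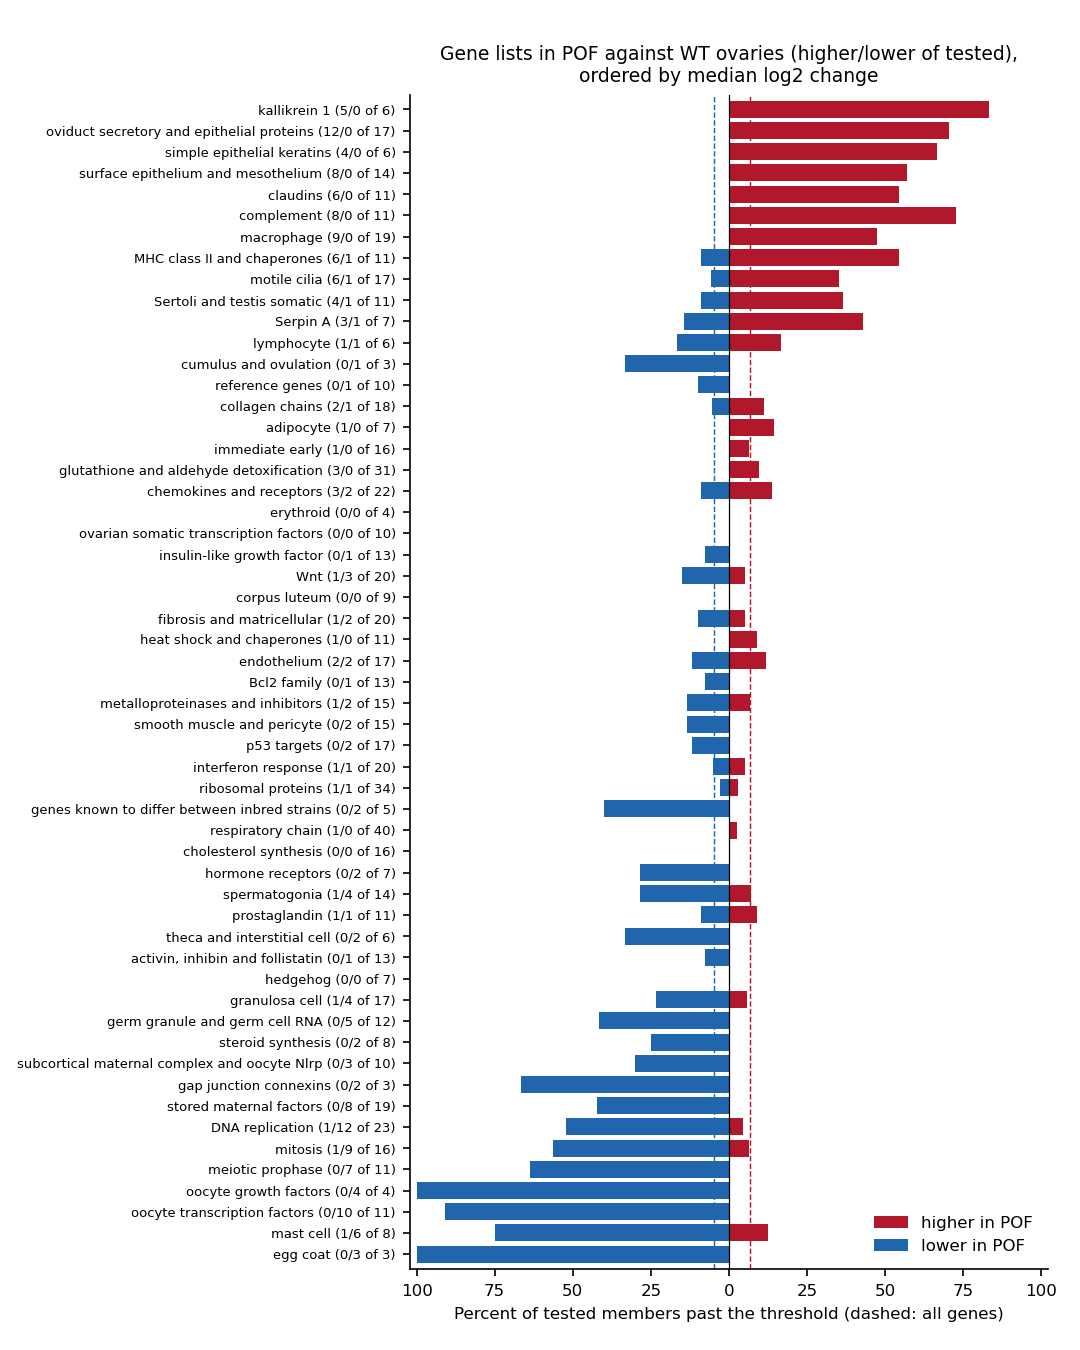
Percent of the tested members of 55 gene lists that were higher (red, right) or lower (blue, left) in POF than in WT ovaries at an adjusted p under 0.05; labels give higher/lower of tested, lists run from the highest median log2 change at the top to the lowest at the bottom, and dashed lines mark 6.66% and 4.92% of all genes. Epithelial and kallikrein lists lie at the top, and egg coat, mast cell and oocyte lists at the bottom.

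Outside these lists, several single genes were among the 15 largest rises and falls. 2810025M15Rik, a long noncoding RNA, measured 12.41 and 12.43 in POF ovaries, against 8.002 and 7.69 in WT ovaries (23.8-fold higher, adjusted p = 5.01e-06). Sox3, a transcription factor of the brain and germ line, measured 4.76 and 4.68 in POF ovaries, against 8.94 and 9.09 in WT ovaries (19.7-fold lower, adjusted p = 4.09e-06), and was above background on 1 POF array. These 2 lay at opposite ends of the scale, Sox3 having the largest fall of any named gene and 2810025M15Rik the largest rise outside the lists. Myl1, a myosin light chain of fast muscle, was 11-fold higher with its second probe also higher, Sftpd, surfactant protein D, at least 9.3-fold, and Slc15a2, a peptide transporter, at least 8.3-fold.

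Among the falls, Dlk1, a Notch-like membrane protein of steroid-forming and precursor cells, measured 4.93 and 5.13 in POF ovaries, against 7.31 and 7.46 in WT ovaries (5.11-fold lower, adjusted p = 0.000136), with its second probe also lower. Nicn1 was 5.87-fold lower, with a second probe near background at -0.08. Tab1, an adaptor of TAK1 kinase, was 5.45-fold lower on its brightest probe, but its other 3 probes were at -0.48, 0.47 and -0.05 and did not pass. Pik3c2g, a lipid kinase, was 4.23-fold lower, Itga2, a collagen-binding integrin, 4.43-fold lower and above background on 1 POF array, and the zinc finger gene Zfp985 4.13-fold lower.

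Probes of a gene did not always move in 1 direction. Of 3655 genes with 2 or more tested probes, 622 had at least 1 probe past the threshold and 173 had 2 or more. In 164 of these 173 all such probes went the same way, and in 9 they went in opposite directions: Ccdc62, Cdca8, Cdkn1a, Ctnnb1, Kit, Kitl, Map2k2, Mrpl3 and Prkcz. Ctnnb1, beta-catenin, measured 10.19 and 10.25 in POF ovaries, against 9.13 and 9.33 in WT ovaries on its brightest probe (1.99-fold higher), while another of its probes fell by 1.35 and 2 more did not pass. Cdkn1a, the p21 cell cycle inhibitor, fell by 0.89 on the brightest probe and rose by 0.89 on a second. Cdca8, a subunit of the chromosomal passenger complex, rose by 1.19 on the brightest probe and fell by 1.14 on the other. On the brightest probe, the calls of Mrpl3 and Prkcz were lost without any 1 array, those of Cdkn1a and Map2k2 without POF replicate 3 or either WT array, and those of Ccdc62 and Ctnnb1 without POF replicate 3 or WT replicate 2 (adjusted p = 0.0503 to 0.143). For these 9 genes, Kit and Kitl included, the counts above use the brightest probe, and the probes together give no single direction.

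**Figure D5:**
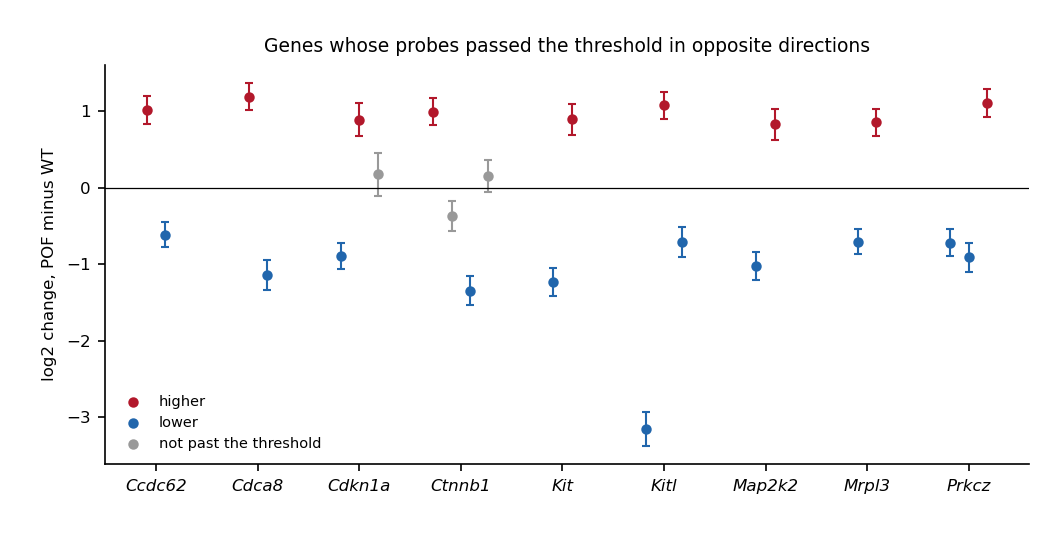
log2 change (POF minus WT) of each tested probe of the 9 genes with probes past the threshold in both directions. Points are limma estimates with bars of 1 standard error, red for higher, blue for lower and grey for not past the threshold; each gene has points on both sides of 0.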

How the data were processed

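Per the labels' protocols, ovary RNA was extracted with Trizol, cleaned on a column with DNase and made into biotinylated cRNA. GenomeStudio is the tool named in the submitters' processing notes; its version and a genome build are not given in the sources used here. Per the file headers, each array has an averaged bead signal and, beside it, a detection p-value in the deposited table. Judged from their range, the deposited signals are linear intensities. Sorted, the intensities of the 6 measured arrays lie within 0.542% of each other, so the deposited signals already shared nearly 1 distribution. A shift common to all probes of an array could therefore not be seen here. The deposited columns of replicate 1 equal the average of replicates 2 and 3, scaled by a factor that takes 9 values in POF and 6 in WT, and the deposited detection p of replicate 1, which passes 1, is treated as a score; these columns enter 1 alternative only.

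Background was estimated from the detection p-values and corrected by normexp with an offset of 16 over the 6 arrays of POF, WT and SSCTR, followed by quantile normalization and log2 (neqc, limma 3.58.1 in R 4.3.3; tables in Python 3.11.15). The 3 groups were fitted together with lmFit and eBayes (prior degrees of freedom 5.95, residual 3). Every p is from limma, two-sided, adjusted by Benjamini-Hochberg over all 18379 probes tested. The number of arrays, 2 a group, limits the precision. The fit was tested on simulated data whose noise was independent and did not depend on intensity. That test does not bear on dim probes or on whether the replicates were separate animals. Of 45281 probes 34885 carry 1 gene symbol, 18 several and 10378 none. The brightest tested probe stands for a gene, also under the alternatives where it is tested there, and other probes are given where they disagree. Where neither array of the lower group was above background, the fold is a bound ("at least"), taken against the lowest detected signal of each array or the probe's own, if higher. Summed levels are log2 of the sum of unlogged values over a list's tested genes.

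The text names the 15 largest rises and falls with separate groups, the defining members of 57 gene lists and up to 4 members a direction of each, genes with probes called in opposite directions, and genes said to be chosen after their values were seen. The members, lists and tests were chosen with earlier results of these data known. Deviations of same-numbered POF and WT arrays did not go together (r = -0.0641 over 18379 probes, which are not independent), so samples were treated as unpaired. Alternatives were other background, normalization, offset, filter and sample choices, the mean over a gene's probes, a replicate block, and leaving out each array.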

Additional observations from a re-analysis of the deposited data

How the results depend on the processing

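The count of genes past the threshold, 1229, was 929 to 1788 under alternatives other than those that left out arrays or added columns. Without background correction 851 genes were lower in POF, and with the authors' normalized values 844, both more than 1.5 times the 522 given. These settings gave nearly the same counts and are not separate checks. All 9 columns gave 6404 probes and 3908 genes, 1887 higher and 2021 lower; replicate 1 being computed from the other arrays, this fit counts them more than once. Leaving out 1 array gave 777 to 1006 probes and 498 to 645 genes, 330 to 414 higher and 163 to 231 lower; fewer samples were fitted. With the replicate number as a block 1649 probes and 1045 genes passed, 619 higher and 426 lower; same-numbered arrays did not deviate together, so this pairs samples by number only. Of 169 named genes past the threshold 87 passed under every alternative that gave them a value and 125 under every one that left out no array. With the mean over a gene's probes, Cdkn1a was at 0.056, Ctnnb1 at -0.14 and Mrpl3 at 0.073, each turned in direction; their probes oppose each other. Signals near background limit the low genes. Of 287 genes detected on both POF arrays and no WT array 108 were past the threshold. Of 273 detected on both WT arrays and no POF array 51 were.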

Other observations

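Gene families outside the lists were chosen after their values were seen and are described without a test. H2A histone genes were lower in POF ovaries at 9 of 13 tested genes, with a median log2 change of -0.82 and all 13 changes negative. H2ac15 measured 10.54 and 10.54 in POF ovaries, against 12.03 and 12.12 in WT ovaries (-1.53 ± 0.17 SE, adjusted p = 0.000884), and H2ac12 was 2.34-fold lower with its second probe also lower. H2B histone genes, which pair with H2A in the nucleosome, did not follow: 1 of 9 was higher, H2bc21, none was lower, and the median was 0.31. Histone genes are near-identical copies, so the signal of 1 may come from others. The difference between the 2 families was not tested.

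Fbxw genes of the cluster on chromosome 9, F-box genes of which several are known from oocytes, were lower at 5 of 8, with all 8 changes negative and a median of -0.97. Fbxw15 measured 7.59 and 7.21 in POF ovaries, against 8.63 and 8.51 in WT ovaries (2.25-fold lower). Pramel genes were lower at 4 of 6, with a median of -0.83. Ugt1a genes, which share their 3' exons and encode glucuronidation enzymes, were higher at 4 of 5, with Ugt1a6b at 7.76 and 7.73 in POF ovaries, against 6.41 and 6.57 in WT ovaries (2.39-fold higher). By position in the RefSeq annotation, the 20 neighbouring tested genes with the most calls, 9, ran from Prdm2 to Mad2l2 on chromosome 4 and included 3 Pramel genes. Calls per chromosome ran from 8.19% of tested genes on chromosome 5 to 16.6% on chromosome 14.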
